A study of Mus musculus with 7 samples.

Results

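RNA-seq of the dorsal midbrain of newborn mice was used to examine 10 immediate early genes (*Fos*, *Fosb*, *Jun*, *Junb*, *Egr1*, *Egr2*, *Egr3*, *Arc*, *Npas4* and *Nr4a1*), out of 52636 genes counted. The genes were chosen by name, as transcripts that neurons induce when they become active. No measured value enters the rule, but the group was proposed with earlier results of these data known. The dorsal midbrain holds the superior colliculus and the periaqueductal gray. The tissue came from 3 control and 4 conditional knockout (cKO) mice of the transcription factor Brn3b, encoded by *Pou4f2*. Controls were Brn3b flox/+ with En1-Cre and were labelled heterozygote. Their libraries were A4 at postnatal day (P) 3 and A2 and A6 at P4. The cKO mice were Brn3b flox/- with En1-Cre and were labelled homozygote. Their libraries were B7 and B9 at P2 and B1 and B8 at P4. All 7 mice therefore carried the Cre transgene and a floxed copy of *Pou4f2*, which after recombination expresses human placental alkaline phosphatase (AP) from the *Pou4f2* promoter, so the controls also lack *Pou4f2* on that copy in recombined cells. En1-Cre acts in the developing midbrain, and only the cKO group held mice at P2. Each library was made from whole tissue, in which fewer cells of a type and less RNA per cell cannot be told apart.

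Immediate early genes are transcribed within minutes of a stimulus, from transcription factors already present in the cell and without new protein synthesis. In neurons, calcium entry and growth factors act through kinases on CREB, which binds the cyclic AMP response element (CRE), and on SRF with its cofactors. Fos and Jun proteins pair to form the transcription factor AP-1, the Egr proteins are zinc finger factors, Npas4 is a neuronal basic helix-loop-helix factor, Nr4a1 is an orphan nuclear receptor, and Arc acts at synapses. Their mRNAs are short-lived, so that a transcript level reflects recent transcription in the tissue.

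Promoter windows were read from RefSeq (GRCm38.p6), from 250 bases before to 50 bases after a transcription start. The table held windows for 7 of the 10 genes and none for *Egr1*, *Egr3* and *Arc*. The 4 sequences printed here are those of the genes with a window whose fitted difference between P2 and P4 cKO libraries, described below, was furthest from 0, although none passed the edgeR test. They are written 5′ to 3′ along the gene, and capitals mark the CRE core, TGACG, on either strand (CGTCA where it lies on the opposite strand). *Fos* lies on the plus strand (window chr12:85473640-85473939), *Fosb* on the minus strand (chr7:19309996-19310295), *Junb* on the minus strand (chr8:84978699-84978998), and *Nr4a1* on the plus strand (chr15:101266596-101266895). The *Nr4a1* window belongs to a start inside the gene as GENCODE vM21 draws it, since that gene model begins at 101254269.
Fos: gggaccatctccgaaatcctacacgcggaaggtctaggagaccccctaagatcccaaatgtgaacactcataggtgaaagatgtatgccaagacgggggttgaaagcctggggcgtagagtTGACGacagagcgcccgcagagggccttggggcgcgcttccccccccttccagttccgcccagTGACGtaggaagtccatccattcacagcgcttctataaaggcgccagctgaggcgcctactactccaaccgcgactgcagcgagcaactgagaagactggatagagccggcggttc
Fosb: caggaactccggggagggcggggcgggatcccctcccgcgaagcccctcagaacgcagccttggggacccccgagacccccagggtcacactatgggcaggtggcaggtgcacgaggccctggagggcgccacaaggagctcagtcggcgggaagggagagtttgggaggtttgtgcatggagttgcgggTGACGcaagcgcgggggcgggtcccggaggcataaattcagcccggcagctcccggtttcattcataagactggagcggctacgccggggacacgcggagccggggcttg
Junb: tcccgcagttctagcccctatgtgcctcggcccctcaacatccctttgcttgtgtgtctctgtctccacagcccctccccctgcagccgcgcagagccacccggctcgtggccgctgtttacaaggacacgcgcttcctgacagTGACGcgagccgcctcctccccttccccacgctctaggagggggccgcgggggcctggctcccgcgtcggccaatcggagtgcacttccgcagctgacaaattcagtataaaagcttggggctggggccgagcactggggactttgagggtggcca
Nr4a1: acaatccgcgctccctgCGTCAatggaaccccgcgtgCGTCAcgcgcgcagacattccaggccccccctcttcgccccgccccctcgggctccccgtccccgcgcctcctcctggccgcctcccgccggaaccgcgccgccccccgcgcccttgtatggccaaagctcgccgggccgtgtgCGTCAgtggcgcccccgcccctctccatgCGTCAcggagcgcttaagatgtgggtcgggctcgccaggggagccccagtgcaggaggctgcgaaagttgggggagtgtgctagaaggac

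The *Fos* window held 2 CRE cores, with first bases at -129 and -66 from the start, and a TATA box (TATAAA, sense strand only) at -33. *Fosb* and *Junb* held 1 core each, at -60 and -106. *Nr4a1* held 4 cores, all on the opposite strand, between -233 and -40. *Npas4* held 2 cores and *Egr2* held the core in 3 of its 5 windows, some of which overlap, whereas the *Jun* window held none, so that 6 of the 7 genes with a window had the core. Of all 27025 genes with a window, 23% held it in at least 1. Counted by window, it was in 8 of the 11 windows of these genes and in 20.8% of all 32851 windows. The full palindrome TGACGTCA, in a window of 2.03% of all genes and overlapping the core wherever it occurs, was in none of these genes' windows. A CArG box, the element that SRF binds, was in a window of 1.81% of all genes and among these genes only in 4 windows of *Egr2*. The TATA box letters were in a window of 9.77% of all genes and here in *Fos* and *Junb*. In *Junb* they began at position 1, the annotated start itself, and not before it as in *Fos*. The EGR site GCGGGGGCG, searched on both strands, was in a window of 3.31% of all genes and here in *Fosb* and *Nr4a1*. These matches are descriptions of letters in a window, not of bound sites.

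The libraries held 23588248 to 87572085 counts on genes, and the P2 libraries B7 and B9 were the deepest. *Pou4f2* lay at 45.8 to 47.4 CPM (read pairs on a gene scaled by the library's TMM-adjusted total) in controls and at 9.64 to 11.6 CPM in cKO libraries, which matched every label. *Xist*, transcribed in female cells, was at 693 CPM in the control A2 and at 1.53 to 2.61 CPM in the other libraries. The part of sex in the results was not tested. B8 stood apart: its score on principal component 1 (60.1% of the variance) was -42.2, among the controls (-81.2 to -33.3), while the other cKO libraries lay at 49.4 to 78.7. The main counts below are therefore also given without it. Genes of high GC content read low in the P2 libraries. Relative to the mean over libraries, the 10% of genes with the highest GC content had a median log2 CPM of -0.41 in B7 and -0.37 in B9, -0.10 in B1, 0.23 in B8 and 0.15 to 0.35 in controls, and all 10 immediate early genes exceeded the median GC content of 49.2% (53.2% to 62.6%). Read pairs that aligned to more than 1 place made up 8.14% and 8.33% of B7 and B9 and 9.76% to 11.1% of the others. The part of depth, GC content and mapping in the results was not tested beyond the corrected values given beside them. The 8 dorsal midbrain markers were detected in all 7 libraries but were not level. Their sum was 964 to 1077 CPM in controls, 918 to 1043 CPM in P4 cKO and 1289 to 1404 CPM in P2 cKO libraries. *Tfap2b* was the largest part of it, at 882 (B7) and 944 (B9) CPM and at 520 to 675 CPM in the other libraries. *En1* ran from 2.78 (B1) to 12.3 CPM (B8) and *En2* from 11.1 (B1) to 27.4 CPM (B9). As a ratio of highest to lowest, *Otx2* (96.3 to 121 CPM) and *Pou4f1* (96.2 to 122 CPM) had the narrowest ranges of the 8. The telencephalic marker *Dlx5* was at 0 in 6 of 7 libraries.

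All 10 genes were expressed, and all passed the filter on low counts, though not equally well: *Egr2* rested on 8 to 60 read pairs per library and *Fosb* on 15 to 262, against 912 to 2900 for *Jun*. Per kilobase of exon, the mean level was highest for *Jun* (11.7 CPM per kb), followed by *Nr4a1* (4.96), *Npas4* (3.45), *Egr1* (3.09), *Fos* (3.08), *Junb* (2.10) and *Arc* (1.30). *Egr3* (0.324), *Fosb* (0.312) and *Egr2* (0.186 CPM per kb) were lowest. The ranges over the 7 libraries of *Npas4* (1.96 to 4.47), *Egr1* (1.74 to 4.65), *Fos* (1.09 to 5.64) and *Junb* (0.586 to 3.71 CPM per kb) overlapped, so the order among these genes was within the spread between libraries. *Jun* at its lowest (10.7) lay above every other gene at its highest (6.88, *Nr4a1*).

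**Figure D1:**
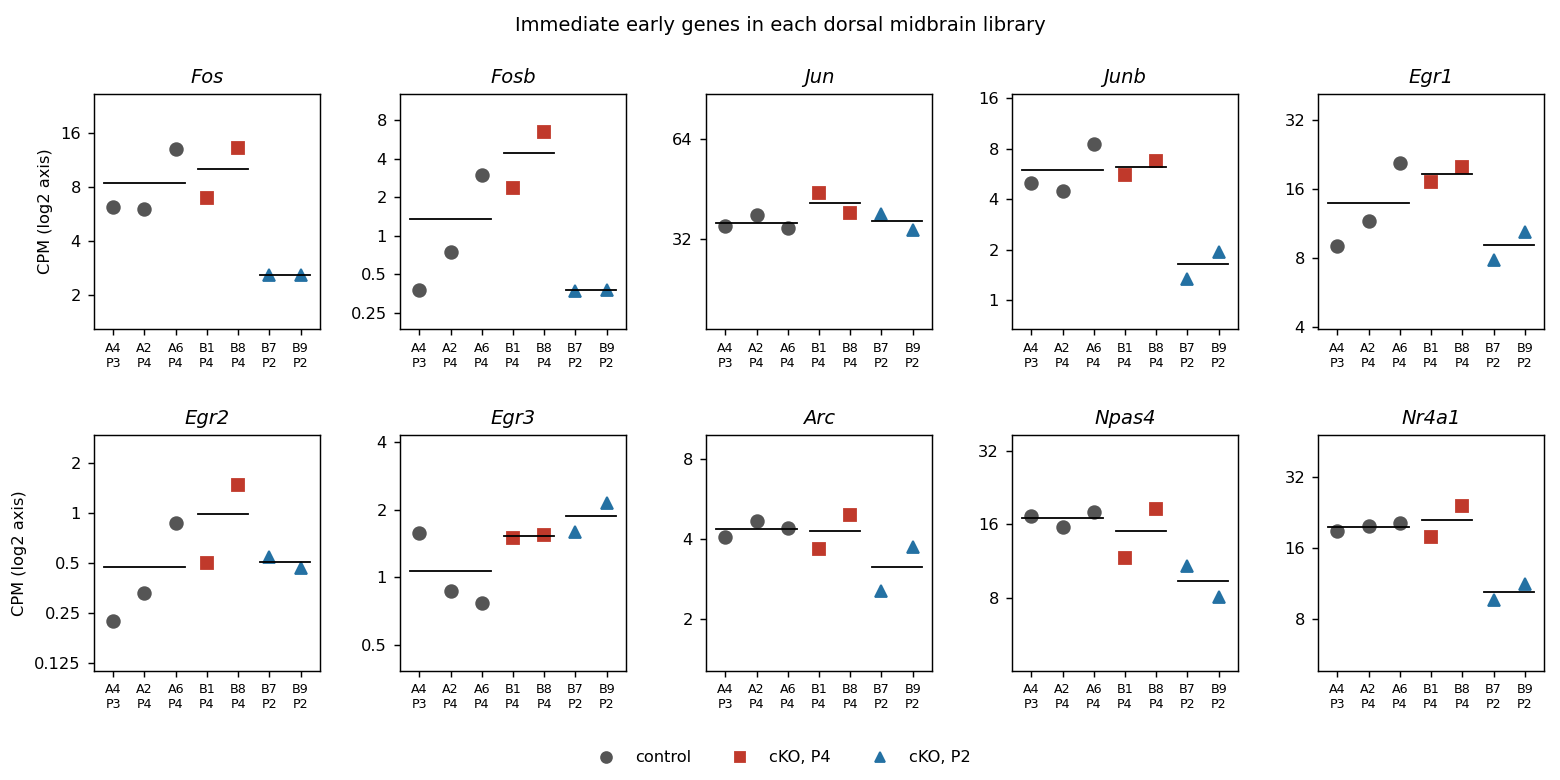
CPM of the 10 immediate early genes in each library (log2 axis, 1 panel a gene), with controls as circles, P4 cKO as squares, P2 cKO as triangles and the mean of each set as a line. *Fos*, *Junb*, *Npas4* and *Nr4a1* were lowest in the P2 libraries, B7 and B9, and in 7 of the 10 panels A6 and B8 are the highest points.

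The AP-1 genes *Fos*, *Fosb* and *Junb* varied several-fold between mice, and the variation crossed the genotypes. *Fos* (chr12:85473890-85477273, plus strand, GENCODE vM21 on GRCm38, as for the positions that follow) was at 6.05 (A2), 6.22 (A4) and 13.1 (A6) CPM in controls and at 6.98 (B1), 13.3 (B8), 2.57 (B7) and 2.57 (B9) CPM in cKO libraries. The highest control and the highest cKO library were thus alike, and both P2 libraries lay below the other 5. *Fosb* (chr7:19302696-19310051, minus strand), which encodes a partner of Jun and, by splicing, the stable ΔFosB, was at 0.746, 0.374 and 2.96 CPM in A2, A4 and A6 and at 2.35 (B1), 6.45 (B8), 0.372 (B7) and 0.376 (B9) CPM in cKO libraries. Its highest value was 17.3 times its lowest, and the P3 control A4 lay as low as the P2 cKO libraries. *Junb* (chr8:84974484-84978718, minus strand) was at 4.52 (A2), 5.02 (A4) and 8.54 (A6) CPM in controls and at 5.62 (B1), 6.82 (B8), 1.35 (B7) and 1.95 (B9) CPM in cKO libraries, again with the P2 pair below the rest. *Junb* shares 173 exon bases with *Prdx2* on the opposite strand. *Jun* (chr4:95049034-95052222, minus strand) differed from these genes: it was at 37.8, 34.97 and 34.6 CPM in A2, A4 and A6 and at 44.0 (B1), 38.3 (B8), 38.1 (B7) and 34.1 (B9) CPM in cKO libraries, a 1.29-fold range. Its 232 exon bases shared with the antisense transcript *Junos* could not be assigned to a strand here, since the strand setting of the counting is not given in the sources used here, and the same holds for *Junb*.

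Among the Egr factors, *Egr1* followed the *Fos* order in part, and *Egr3* did not. *Egr1*, a widely used marker of neuronal activity, was at 11.6 (A2), 9.06 (A4) and 20.9 (A6) CPM in controls and at 17.2 (B1), 20.04 (B8), 7.82 (B7) and 10.3 (B9) CPM in cKO libraries. The control A4 lay between the P2 libraries, so these did not separate from the controls. *Egr2* (chr10:67535475-67542188, plus strand) was at 0.332, 0.225 and 0.876 CPM in A2, A4 and A6 and at 0.498 (B1), 1.48 (B8), 0.543 (B7) and 0.470 (B9) CPM in cKO libraries, with B8 far above the other 3. *Egr3* (chr14:70077203-70082614, plus strand) was at 0.871 (A2), 1.57 (A4) and 0.766 (A6) CPM in controls and at 1.49 (B1), 1.55 (B8), 1.60 (B7) and 2.15 (B9) CPM in cKO libraries. *Egr3* was the 1 gene of the 10 with both P2 libraries above the other 5, an order that 22.5% of all genes tested showed.

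*Npas4*, *Nr4a1* and *Arc* were nearly level among controls, and B8 was the highest library for each. *Npas4* (chr19:4984355-4990316, minus strand), whose transcription follows calcium entry in neurons, was at 15.6 (A2), 17.4 (A4) and 17.95 (A6) CPM in controls and at 11.7 (B1), 18.5 (B8), 10.8 (B7) and 8.09 (B9) CPM in cKO libraries. *Nr4a1* (chr15:101254269-101274795, plus strand) was at 19.9, 18.8 and 20.4 CPM in A2, A4 and A6 and at 17.8 (B1), 24.1 (B8), 9.61 (B7) and 11.3 (B9) CPM in cKO libraries. For both these genes 3 of the 4 cKO libraries lay below every control and B8 above every control. *Arc* (chr15:74669083-74672570, minus strand) was at 4.64 (A2), 4.04 (A4) and 4.38 (A6) CPM in controls and at 3.67 (B1), 4.90 (B8), 2.54 (B7) and 3.71 (B9) CPM in cKO libraries, the same order of B8, controls and the 3 other cKO libraries.

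None of the 10 genes passed the test across all genes between cKO and control mice. The quasi-likelihood test of edgeR, adjusted by Benjamini-Hochberg, called 0 of 10, with adjusted p from 0.206 (*Egr3*) to 0.996 (*Egr1*), and 0 of the 10 had an unadjusted p under 0.05. Across all 21817 genes tested the same test called 1, *Pou4f2* itself (0.00458%), while 6633 genes had an unadjusted p under 0.05. DESeq2 also called 0 of 10, against 10.4% of the 19092 genes to which it gave an adjusted p. The widest differences were *Fosb* at a log2 fold change of 0.80 ± 1.04 (SE), *Egr3* at 0.65 ± 0.34, *Egr2* at 0.65 ± 0.62 and *Junb* at -0.63 ± 0.53, and *Egr1* stood at -0.00 ± 0.37. The median over the 10 genes was -0.12, beside 0.00 over all genes tested. An exact permutation test, run on log2 CPM with the 35 ways to place 3 of 7 libraries, gave p from 0.171 (*Egr3*) to 0.914 (*Egr1*), two-sided, and its smallest possible p is 0.0571. No gene had every cKO library below every control, which 8.01% of all genes tested showed, nor every cKO library above every control, which 6.03% showed. With the trend of each library with GC content and exon length removed, 0 of 10 and 1 of all 21817 genes were called, and the median over the 10 genes was 0.16, beside -0.01 over all genes. *Jun* then stood at 0.41 ± 0.15 (adjusted p = 0.141) and was the 1 gene of the 10 with an unadjusted p under 0.05, as 25.4% of all genes had.

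That result rested in part on B8. Without it, edgeR called 3 of 10, *Fos* at a log2 fold change of -1.11 (adjusted p = 0.0379), *Npas4* at -0.75 (adjusted p = 0.00298) and *Nr4a1* at -0.63 (adjusted p = 0.0229), all lower in cKO, and the share called among all genes was 46.7%. DESeq2 without B8, a run added after the data were seen, called *Npas4* and *Nr4a1*, against 39.9% of all genes. limma-voom with sample quality weights, which gave B8 a weight of 0.167, called 5 of 10 (*Fos*, *Junb*, *Npas4* and *Nr4a1* lower, *Egr3* higher in cKO), against 48.5% of all genes. In each of the 3 runs the share of the 10 genes called was near or below that of all genes. The outcome also differed with the age of the cKO mice. Controls against the P2 cKO libraries gave 4 of 10 called (*Fos* -1.73, *Junb* -1.88, *Npas4* -0.87 and *Nr4a1* -0.93 in log2 fold change, with adjusted p from 0.000413 to 0.00168), against 46.9% of all genes. Controls against the P4 cKO libraries gave 0 of 10 called, where the test called 1 of 21002 genes (0.00476%), with log2 fold changes of 0.28 (*Fos*), 0.05 (*Junb*), -0.16 (*Npas4*) and 0.10 (*Nr4a1*). As P2 mice occurred only among cKO mice, genotype and age cannot be told apart in the comparison with the P2 libraries.

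**Figure D2:**
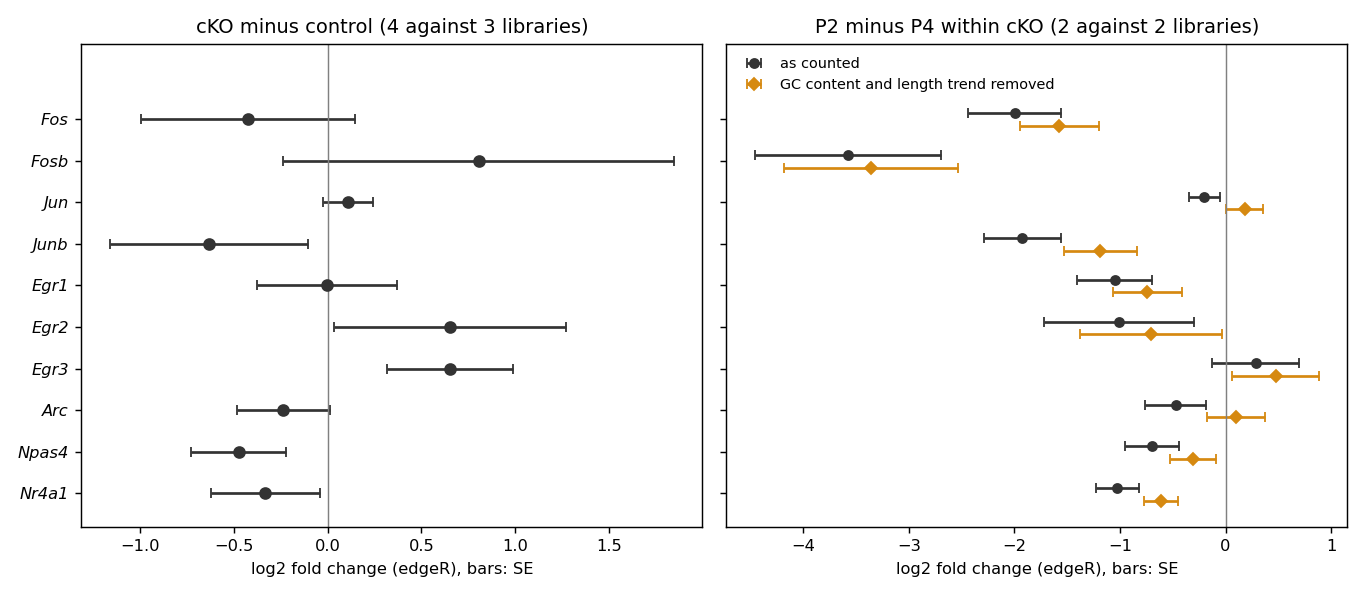
log2 fold changes of the 10 genes from edgeR with their SE, cKO minus control on the left and P2 minus P4 within cKO on the right, the latter also after the trend with GC content and exon length was removed (diamonds). On the left 4 genes lie above 0 and 6 at or below it; on the right *Fosb*, *Fos* and *Junb* lie lowest, at -3.58, -1.9996 and -1.93.

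Within the cKO group, 9 of the 10 genes read lower at P2 than at P4, and *Fosb*, *Fos* and *Junb* were furthest apart. The fitted ratio of the P4 to the P2 level was 11.9 for *Fosb*, 3.999 for *Fos*, 3.80 for *Junb*, 2.07 for *Egr1*, 2.03 for *Nr4a1*, 2.01 for *Egr2* and 1.62 for *Npas4*. It was 1.39 for *Arc*, 1.15 for *Jun* and 0.820 for *Egr3*. No gene passed the edgeR test on this contrast of 2 against 2 libraries, in which all 7 libraries shared the estimate of the spread. The log2 fold changes were -3.58 ± 0.88 (SE, adjusted p = 0.100) for *Fosb*, -1.9996 ± 0.44 (adjusted p = 0.0985) for *Fos*, -1.93 ± 0.36 (adjusted p = 0.0985) for *Junb* and -1.02 ± 0.20 (adjusted p = 0.0985) for *Nr4a1*. The unadjusted p was under 0.05 for these 4 genes, *Egr1* (-1.05 ± 0.36) and *Npas4* (-0.70 ± 0.25), that is 6 of 10, as for 24.6% of all genes. The same test called 0 of 22771 genes (0%) at an adjusted p under 0.05, and limma-voom with sample quality weights, added after the data were seen, also called 0 (0%) and gave 6 of the 10 genes and 4439 of all genes an unadjusted p under 0.05. DESeq2 called 5 of the 9 genes to which it gave an adjusted p, *Fos*, *Fosb*, *Junb*, *Egr1* and *Nr4a1*, all lower at P2, with adjusted p from 9.91e-05 (*Junb*) to 0.0303 (*Egr1*), against 13.2% of all genes. The median over the 10 genes was -1.02, beside -0.04 over all genes tested.

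This contrast moved with single libraries and with GC content. Without B1, whose level lay between those of the P2 libraries and B8 for 6 genes, edgeR called 6 of 10 (the 5 that DESeq2 called and *Npas4*, all lower at P2), against 29.6% of all genes, with B8 then the lone P4 cKO library and assumed to vary like the other groups. Without B8, when B1 was the lone P4 cKO library, it called 0 of 10 and 0 of all 23557 genes, with an unadjusted p under 0.05 for 5 of 10 and 12.4% of all genes, and the median over the 10 genes was -0.53. The log2 fold changes were then -2.63 ± 0.87 for *Fosb*, -1.43 ± 0.41 for *Fos*, -1.75 ± 0.39 for *Junb*, -0.91 ± 0.38 for *Egr1*, -0.76 ± 0.19 for *Nr4a1*, -0.30 ± 0.23 for *Npas4* and 0.03 ± 0.86 for *Egr2*, with adjusted p from 0.186 to 0.992 over the 10 genes. The fitted ratio of the P4 to the P2 level was then 6.21 for *Fosb*, 2.70 for *Fos* and 0.981 for *Egr2*. After the GC content and length trend of each library was removed, also added after the data were seen, the median was -0.66, beside 0.07 over all genes, and 0 genes were called. *Fosb* then stood at -3.36 ± 0.82 (adjusted p = 0.125), *Fos* at -1.57 ± 0.37 (adjusted p = 0.124), *Junb* at -1.19 ± 0.35 (adjusted p = 0.141) and *Nr4a1* at -0.61 ± 0.16 (adjusted p = 0.129). *Npas4* stood at -0.31 ± 0.22, and *Arc* and *Jun* stood at 0.10 ± 0.27 and 0.18 ± 0.17, with the opposite sign to their values as counted. Both P2 libraries lay below both P4 cKO libraries for 7 of the 10 genes, against 27.5% of all genes. They lay below all 5 other libraries for 4 genes (*Fos*, *Junb*, *Npas4* and *Nr4a1*), against 21.9% of all genes, and without B8 below the 4 others for the same 4 genes, against 22.6%. With the trend removed this held for 3 (*Fos*, *Junb* and *Nr4a1*), against 12.4%. On counts thinned to the smallest library the contrast was about as large, with a median of -0.90 over the 10 genes, *Fosb* at -3.19, *Fos* at -1.87 and *Junb* at -1.86 (adjusted p from 0.0992 to 0.114) and 0 called. Among the cKO libraries, the P2 pair read lowest for genes of high GC content. Age and this trend therefore cannot be told apart in this contrast. Over all 7 libraries the trend was not in order of age, since the P3 control A4 had the highest value (0.35) for those genes.

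**Figure D3:**
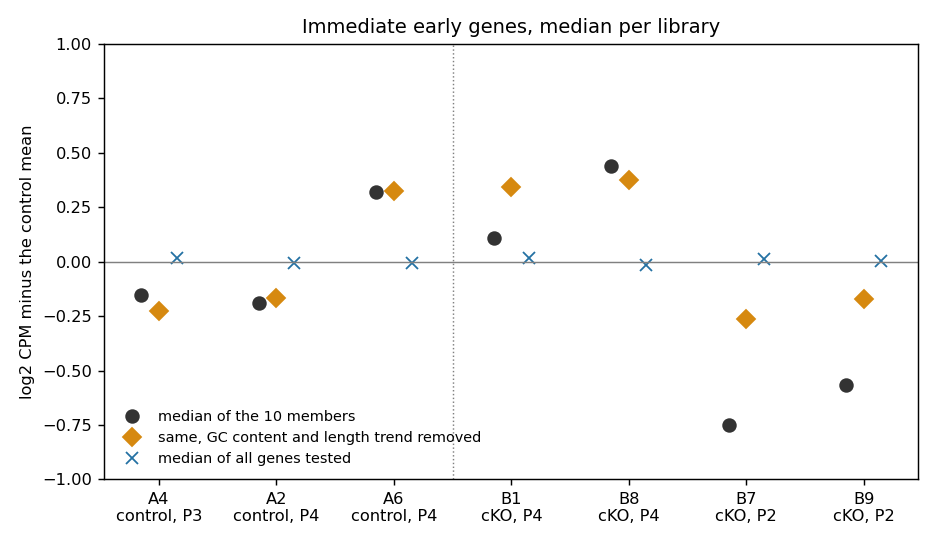
Median over the 10 genes of log2 CPM minus the control mean, per library (circles), the same with the GC content and length trend removed (diamonds), and the median of all genes tested (crosses). A6 (0.32) and B8 (0.44) are highest and B7 (-0.75) and B9 (-0.57) lowest; with the trend removed B7 and B9 lie at -0.26 and -0.17.

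The order of the libraries was shared by most of these genes, a pattern noticed in the values. A6, a P4 control, and B8, a P4 cKO library, lay above the other 5 for 7 of the 10 genes (*Fos*, *Fosb*, *Junb*, *Egr1*, *Egr2*, *Npas4* and *Nr4a1*), against 3.62% of all genes tested. B8 was the highest of all 7 for 6 genes (*Fos*, *Fosb*, *Egr2*, *Arc*, *Npas4* and *Nr4a1*), against 7.11% of all genes. Without B8, A6 was the highest of the 6 remaining libraries for 7 genes, against 11% of all genes. The median over the 10 genes of log2 CPM minus the control mean was -0.19 (A2), -0.15 (A4) and 0.32 (A6) in controls and 0.11 (B1), 0.44 (B8), -0.75 (B7) and -0.57 (B9) in cKO libraries, while the median of all genes stayed between -0.01 and 0.02. With the GC content and length trend removed, B1 rose beside A6 and B8, at 0.34 against 0.32 and 0.37, and A2, A4, B7 and B9 lay from -0.26 to -0.17. The control at P3 and 1 of the 2 controls at P4 therefore lay with the P2 cKO libraries on that scale, and all 3 higher libraries were from P4 mice.

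*Fosb*, *Fos*, *Junb* and *Egr2* were among the more variable transcripts of the tissue. The SD of log2 CPM within groups was 1.77, 0.976, 0.924 and 0.815 in that order, which placed them at the 99.9th, 95.6th, 94.5th and 91.6th percentiles of all genes tested. The median over the 10 genes was 0.548, beside 0.331 over all genes, and 8 of the 10 lay above the latter. *Jun* lay at the 8.75th percentile with 0.125 and *Arc* at the 45.2nd with 0.303. The excess was similar on counts thinned to the smallest library (0.592 beside 0.314) and with the GC content and length trend removed (0.471 beside 0.278). Without B8 it was 0.509 beside 0.226, with *Fosb* (1.45), *Fos* (0.731) and *Junb* (0.820) above the 90th percentile of all genes and *Egr2* (0.651) at the 88.8th. The spread was not the same in the 2 genotypes for every gene: *Nr4a1* had an SD of 0.058 among controls and 0.607 among cKO libraries, *Npas4* 0.104 and 0.492, and *Arc* 0.099 and 0.383, whereas *Egr1* had 0.616 and 0.630. Among the 3 cKO libraries other than B8 the SD was 0.460 for *Nr4a1*, 0.277 for *Npas4* and 0.305 for *Arc*, and that of *Egr2* was 0.096. The cKO group held 2 ages further apart than those of the controls, and a difference in spread between genotypes was not tested.

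**Figure D4:**
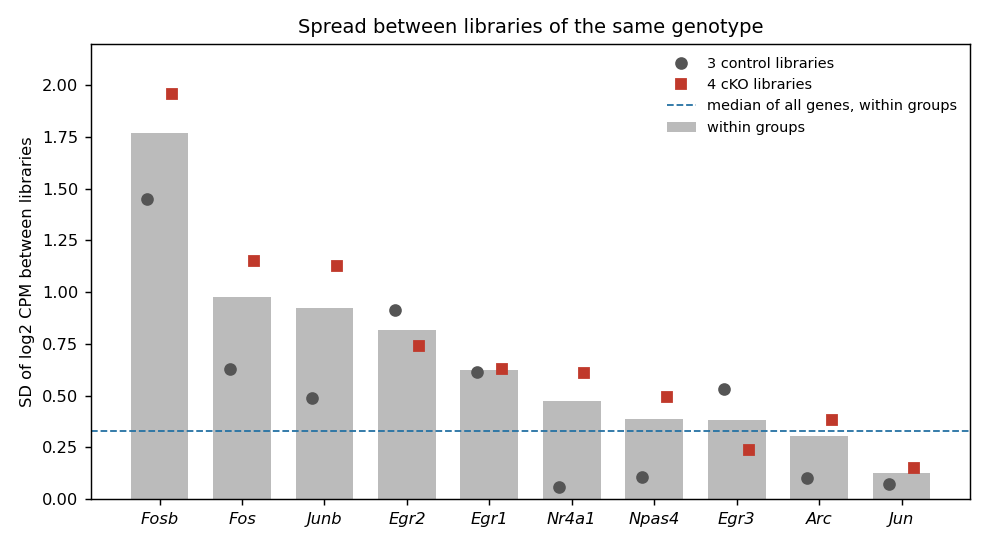
SD of log2 CPM within groups (bars), among the 3 controls (circles) and among the 4 cKO libraries (squares) for each of the 10 genes, with the median within-group SD of all genes tested as a dashed line (0.331). *Fosb*, *Fos*, *Junb* and *Egr2* stand highest and *Jun* and *Arc* lie under the line.

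Genes of the same pathways were taken from 8 lists, and 0 of their 97 tested genes were called by edgeR in either contrast, although 20 between genotypes and 37 between P2 and P4 cKO had an unadjusted p under 0.05, beside 30.4% and 24.6% of all genes. Between genotypes DESeq2 called 4 of the 94 genes to which it gave an adjusted p, *Dusp4* (adjusted p = 0.0149), *Ep300* (0.0229) and *Rps6ka3* (0.0326) higher and *Nptx2* (0.0396) lower in cKO, against 10.4% of all genes. limma-voom called 48 and edgeR without B8 called 42 of the 97, against 48.5% and 46.7% of all genes. Of the other immediate early transcription factors (18 genes), those with the lowest unadjusted p between genotypes were *Jund*, a Jun family member that many cells express at rest, at a log2 fold change of -0.72, *Egr4* at -1.40 and *Nfil3* at -0.29, with adjusted p from 0.143 to 0.176. Of the other effectors and feedback genes (21), these were *Dusp4*, a phosphatase that inactivates MAP kinases, at 1.42, *Gadd45b* at -0.83 and *Plk3* at -0.38 (adjusted p from 0.138 to 0.174). Of the later activity-regulated genes (11), they were *Nptx2*, a secreted pentraxin of excitatory synapses, at -0.66, *Scg2* at 0.34 and *Vgf* at -0.48 (adjusted p from 0.138 to 0.233). For the genes that act before transcription of the immediate early genes, the values were *Ep300* 1.00, *Mef2d* 0.47 and *Mef2a* 0.58 among CREB and MEF2 factors and coactivators, *Elk1* 0.46, *Mrtfb* 0.55 and *Srf* -0.30 among SRF and its cofactors, and *Rps6ka3* 0.88, *Map2k2* -0.64 and *Mapk3* -0.49 among upstream kinases (adjusted p from 0.138 to 0.207). Among the AP-1 partners *Batf* stood at -1.35, *Atf7* at 0.48 and *Atf2* at 0.35, and among heat shock genes, which respond to stress of the tissue, *Hsp90aa1* stood at -0.31, *Dnajb1* at -0.30 and *Hspa1b* at -0.58 (adjusted p from 0.138 to 0.199). B8 was at control level for several of these, as for *Dusp4* (15.6 CPM in B8 against 9.64 to 16.95 CPM in controls and 32.7 to 52.7 CPM in the other cKO libraries).

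In the contrast of P2 with P4 cKO libraries the medians of the related lists lay nearer to 0 than that of the 10 genes. The median log2 fold change was -0.22 for the other immediate early transcription factors (10 of 18 below 0), -0.11 for the effectors and feedback genes (12 of 21), -0.22 for the later activity-regulated genes (9 of 11) and -0.12 for heat shock genes (6 of 10), beside -1.02 for the 10 genes. With the GC content and length trend removed the first 3 of these medians were -0.00, -0.02 and -0.10, and without B8 the 4 were 0.01, -0.09, -0.29 and -0.05. edgeR without B8 and limma-voom called 0 of the 97 genes, and limma-voom gave 26 an unadjusted p under 0.05, beside 19.5% of all genes. DESeq2 called 13 of 93, against 13.2% of all genes: *Jund*, *Atf3*, *Klf2*, *Ccn1*, *Ier3*, *Vgf*, *Nptx2* and *Hspb1* were lower and *Fosl1*, *Dusp4*, *Mef2a*, *Mef2c* and *Hsp90ab1* higher at P2. The genes with the lowest unadjusted p were *Jund* (-0.93 ± 0.24), *Klf2* (-1.17 ± 0.35) and *Fosl1* (0.91 ± 0.30) among transcription factors. They were *Ccn1*, a secreted matrix protein, (-1.17 ± 0.30), *Ier3* (-1.05 ± 0.30) and *Dusp4* (1.12 ± 0.35) among effectors. Among later genes they were *Vgf*, a secreted neuropeptide precursor that follows activity (-0.94 ± 0.18), *Nptx2* (-0.64 ± 0.14) and *Cartpt* (-2.12 ± 0.73). *Cartpt* was at 15.1 CPM in B8, against 2.56 (B1), 2.88 (B7) and 1.32 (B9) CPM, and without B8 its log2 fold change was -0.29. Without B8 *Jund* stood at -0.52, *Klf2* at -0.69, *Dusp4* at 0.69 and *Vgf* at -0.72. In the lists that act before transcription they were *Mef2a* (0.64), *Mef2c* (0.90) and *Crebbp* (0.40) among CREB and MEF2 factors and coactivators, *Srf* (-0.36), *Elk1* (0.27) and *Mrtfa* (-0.23) among SRF and its cofactors, and *Map2k1* (-0.47) and *Map2k2* (-0.66) among kinases. *Atf2* (0.37), *Jdp2* (-0.34) and *Atf7* (0.28) led the AP-1 partners, and the small heat shock gene *Hspb1* (-1.54), *Hsp90ab1* (0.44) and *Hspa1b* (-0.75) led the heat shock genes, with edgeR adjusted p from 0.100 to 0.381 over these 14 genes. Without B8 all 14 had the same sign, with *Mef2a* at 0.38, *Map2k2* at -0.38, *Hspa1b* at -0.33, *Srf* at -0.16, *Elk1* at 0.14, *Jdp2* at -0.13 and *Atf7* at 0.09. With the GC content and length trend removed, 4 of the 14 had the opposite sign, *Srf* at 0.35, *Mrtfa* at 0.09, *Jdp2* at 0.17 and *Atf7* at -0.03. *Mef2a* (0.22), *Mef2c* (0.40), *Crebbp* (0.11), *Map2k1* (-0.31), *Map2k2* (-0.31), *Atf2* (0.05), *Hspb1* (-0.78) and *Hspa1b* (-0.17) lay nearer to 0, as did *Elk1* (0.20), and *Hsp90ab1* (0.65) lay further from it. *Vgf* was at 140, 146 and 129 CPM in A2, A4 and A6 and at 113 (B1), 146 (B8), 76.3 (B7) and 60.6 (B9) CPM in cKO libraries, the same low pair as for *Nr4a1*. *Jund* had -0.06 and *Vgf* -0.18 with the trend removed, against -1.45 for *Atf3*, another early bZIP factor, which stood at -1.75 ± 0.59 as counted. *Atf3* was at 2.66 CPM in B8 and 0.712 CPM in B1, and without B8 it stood at -0.46.

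**Figure D5:**
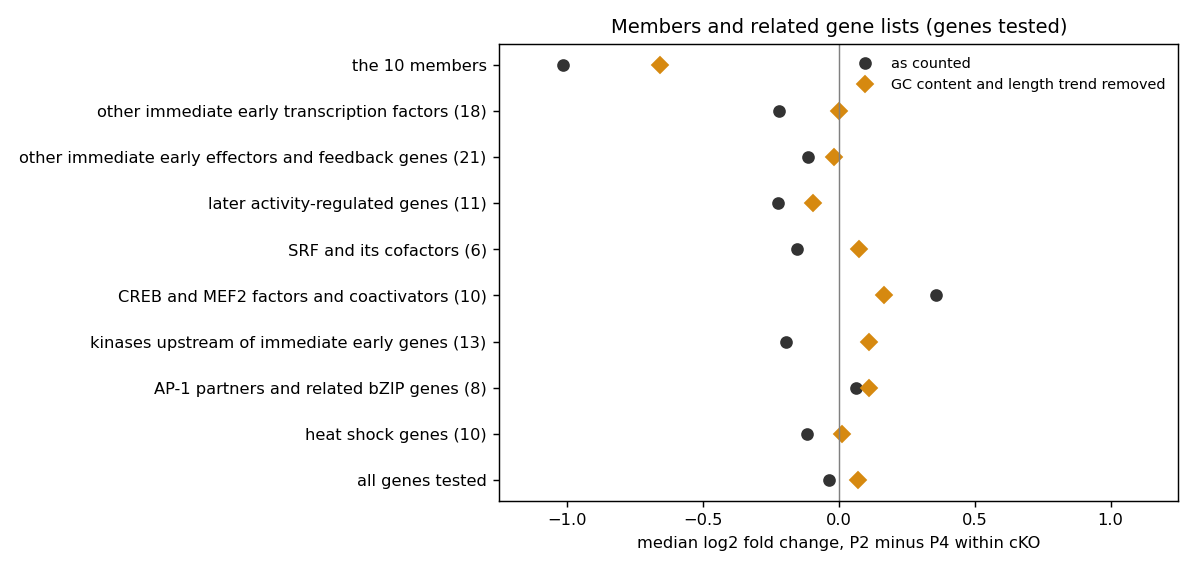
Median log2 fold change, P2 minus P4 within cKO, of the 10 genes, of 8 lists of related genes (number tested) and of all genes tested, as counted (circles) and with the GC content and length trend removed (diamonds). The 10 genes lie at -1.02 and -0.66; the 8 lists lie between -0.22 and 0.36 as counted.

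Markers of other cell types were compared in the same libraries, and 0 of the marker genes were called by edgeR in either contrast, with an unadjusted p under 0.05 for 19 of 72 between genotypes and 28 of 73 between P2 and P4 cKO, beside the same 30.4% and 24.6% of all genes. DESeq2 called 5 of 69 between genotypes, against 10.4% of all genes, *Slc17a7* (adjusted p = 0.0246) and *C1qa* (0.0342) lower and *Pdgfra* (0.0316), *Mki67* (0.0322) and *Gad2* (0.0361) higher in cKO. Between genotypes limma-voom called 39 of 72 and edgeR without B8 called 32 of 71, near the 48.5% and 46.7% of all genes that these tests called. Between P2 and P4 cKO, DESeq2 called 16 of 69, against 13.2% of all genes, and 14 of the 69 were called lower at P2, against 7.56% of all genes. *Gfap*, *Fabp7*, *Olig1*, *Aif1*, *Col1a1* and *Cdk1* were among these 14, and limma-voom and edgeR without B8 called 0. Summed over 6 red blood cell genes, the level was 57.9 to 61.8 CPM in P2 cKO, 178 to 179 CPM in P4 cKO and 132 to 496 CPM in control libraries, with all 6 genes below 0 in the contrast of P2 with P4. Microglial markers summed to 74.5 to 77.3, 92.1 to 98.5 and 92.7 to 123 CPM in the same order (5 of 6 below 0), pericyte and meningeal markers to 274 to 332, 381 to 391 and 217 to 362 CPM (4 of 6), and markers of dividing cells to 46.7 to 64.9, 61.6 to 84.3 and 42.7 to 58.9 CPM (4 of 5). Markers of astrocytes and radial glia summed to 1216 to 1403 CPM in P2 cKO, 1706 to 1878 CPM in P4 cKO and 1853 to 2135 CPM in controls (5 of 6 below 0), and those of the oligodendrocyte lineage to 307 to 342, 403 to 416 and 344 to 392.1 CPM (5 of 6). The largest part of the astroglial sum was *Fabp7*, at 761 (B7), 576 (B9), 1034 (B1) and 1292 (B8) CPM and 1276 to 1544 CPM in controls. *Slc1a3*, the astroglial marker not below 0, was at 357 (B7), 363 (B9), 327 (B1) and 266 (B8) CPM and 271 to 295 CPM in controls. The choroid plexus markers other than *Otx2*, which the midbrain also expresses, were low: *Kl* reached 2.65 CPM, *Folr1* 1.43, *Aqp1* 1.20 and *Ttr* 0.649 CPM in any library. Endothelial markers overlapped between P2 (154 to 199 CPM) and P4 (141 to 186 CPM) cKO libraries. Neuronal markers summed to 4293 to 4621 CPM at P2, 4471 to 5096 CPM at P4 in cKO and 5040 to 5870 CPM in controls. No list had a marker at 0 in every library. The part of blood, glial and vessel cells in the low *Fos*, *Fosb*, *Junb* and *Nr4a1* levels at P2 was not tested.

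The genes whose pattern over the 7 libraries was most like the mean z-score of the 10 genes, among 12783 genes of at least 5 CPM on average, were *Cluh* (Pearson r = 0.932), *Rtl1* (0.926), *Mov10* (0.924), *Phldb1* (0.923) and *Zfyve28* (0.920). With group means removed they were *Gm5829* (0.995), *Fbxw4* (0.994), *Tjap1* (0.993), *Coro7* (0.990) and *Gm21846* (0.990). None of these 10 is one of the immediate early genes listed here. The correlations are descriptions over 7 libraries that share their depth and GC content trends with the genes compared. *Rtl1*, for example, was at 34.4, 26.1 and 35.03 CPM in A2, A4 and A6 and at 32.6 (B1), 39.1 (B8), 21.7 (B7) and 20.05 (B9) CPM in cKO libraries, with B8 highest and the P2 pair lowest.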

How the data were processed

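RNA was sequenced from the dorsal midbrain of 7 mice, 3 control and 4 cKO, grouped by the genotype label. Per the labels and the study's methods, the authors made stranded poly(A) libraries, aligned read pairs to GRCm38.p5 with TopHat2 and Bowtie2 and counted them with HTSeq against the GENCODE vM15 genes. For each of 52636 genes the authors deposited a whole-number count that had not been normalized. The strand and overlap options are not given in the sources used here. Entries that name no gene (30.98% to 38.18% of counted pairs) were left out. Depth was 23588248 to 87572085 counts on genes (median 39251318), so the rarest gene here, *Egr2*, rested on 8 to 60 counts. Positions, exon lengths and GC content came from GENCODE vM21, in which 52489 of 52636 identifiers matched.

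Counts were tested in R 4.3.3 with edgeR 4.0.16 (filterByExpr with a minimum count of 10, TMM, glmQLFit and glmQLFTest) and a Benjamini-Hochberg adjusted p under 0.05 over all genes tested. This was done for cKO against control (21817 genes) and for P2 against P4 within cKO (22771 genes, 3 groups). CPM used TMM library sizes and log2 CPM a prior count of 2. DESeq2 1.42.0, limma 3.58.1 (voom), a GC content and exon length trend removed per library (mgcv 1.9.3), thinned counts, other filters, factors and samples were alternatives. The fits were tested on simulated data. Libraries of a group differed by more than sampling noise (chi-square per degree of freedom 8.37 to 242), and each was counted as 1 replicate; the labels do not say more of their origin, so p-values measure only the spread between these samples.

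The 10 genes, grouped by name, and the gene lists were chosen with earlier results of these data known. All 10 genes are named. Of each related list the 3 genes with the lowest unadjusted p are named for each contrast, as none passed by edgeR, except for 1 result that is not reported here. *Atf3*, the midbrain, telencephalic and choroid plexus markers named, list and marker genes named for a DESeq2 call and those given with values by library were named after their values were seen. The genes most like the 10 were those of at least 5 CPM with the highest Pearson correlation.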

Additional observations from a re-analysis of the deposited data

Results flagged for a closer look

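In groups of 4 libraries, a library was marked as far from the others where its gap to the nearest on the CPM scale (log2 for the median of the genes), divided by the range, exceeded Dixon's critical value for 4 libraries. Among 11 cKO groups of values examined, 2 passed, and chance marks about 1 in 20. For *Egr2* the ratio was 0.928: B8 stood at 1.48 CPM, against 0.470 to 0.543 CPM in B1, B7 and B9. For *Egr3* it was 0.843: B9 stood at 2.15 CPM, against 1.49 to 1.60 CPM in B1, B7 and B8. On log2 CPM, a scale added after the data were seen, the ratios were 0.878 for *Egr2* and 0.818 for *Egr3*, and the latter no longer passed. *Egr2* rested on 60 counts in B8 and 14 to 40 in the other cKO libraries, and *Egr3* is among the lowest of the 10 genes. B8, the far library for *Egr2*, is also the one whose score on principal component 1 lay among the controls.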

How the results depend on the processing

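No paired analysis was possible because labels give the mice no shared numbers across groups. Between genotypes, the count of the 10 genes called was 0 with edgeR and stayed 0 under 18 further settings; it was 5 with limma-voom (median log2 fold change -0.62), 4 for controls against P2 cKO (median -0.75) and 2 with DESeq2 without B8. Leaving out a library in turn gave 0 to 3 (3 without B8). The sign turned for *Egr1* at 0.000387 (upper-quartile factors), 0.018 (at least 10 counts in every library), 0.33 (age as covariate), 0.20 (P4 only), 0.43 (controls against P4 cKO), 0.16 (GC content and length) and 0.00398 (protein-coding genes), for *Fosb* at -1.14 (limma-voom), -1.86 (controls against P2 cKO) and -0.41 (DESeq2 without B8), for *Jun* at -0.0065 (controls against P2 cKO) and for *Arc* at 0.16 (GC content and length). For *Fos* it turned at 0.089 (P4 only) and 0.28 (controls against P4 cKO), for *Nr4a1* at 0.063 and 0.10 in these, and for *Junb* at 0.054 in the latter. Leaving out a library gave *Fos* -1.11 to 0.037, *Fosb* -0.49 to 2.10, *Junb* -1.08 to -0.30, *Egr1* -0.25 to 0.42 and *Egr2* 0.098 to 1.43. At P2 against P4 within cKO, the count was 0 with edgeR and 5 with DESeq2, and 0 to 6 when a library was left out (6 without B1), with medians of -1.17 to -0.53 and *Egr2* at -1.54 to 0.028; GC content and length correction turned *Jun* (0.18) and *Arc* (0.10). The causes were not tested. *Fos*, *Fosb*, *Junb*, *Egr1*, *Npas4* and *Nr4a1* read lower at P2 under all 12 alternatives tried. Counts below 100 in *Egr2*, in *Fosb* outside B8 and in *Egr3* outside B7 and B9 limit what those genes can show. On thinned counts *Egr3* stood at 0.44 between genotypes, against 0.65 as counted. Between P2 and P4 cKO it stood at 0.09, against 0.29.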
